A study of Arabidopsis thaliana with 24 samples.

Results

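Iron uptake, transport and storage genes were followed through all 24 libraries of the series. The set is a list of 49 Arabidopsis genes known for these roles, taken by gene identifier from the 33540 genes in the deposited tables, and all 49 had at least 1 read in some library. The list was drawn up with earlier results of these libraries known and not by a threshold on any measured value, so counts over the list are descriptions. It held 32 genes that earlier work found raised by iron deficiency, 7 storage genes (4 ferritins and 3 vacuolar iron transporter-like genes) and 10 others.

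All samples were whole seedlings of Col-0, the wild type that serves as the Arabidopsis reference line, grown on agar in short days (8 h light, 16 h dark) and taken at dawn. The 8 groups, with 3 samples each, crossed seedling age (2 or 7 days), temperature (22°C or 27°C) and chemical: Heatin, a small molecule that promotes hypocotyl elongation, at 8.5 µM, or a mock of its solvent, dimethyl sulphoxide at 0.1%, which the Heatin medium also held. Each sample pooled RNA of 3 harvested batches of seedlings, which limits what the spread between samples can say about single plants. Depth was 19705950 to 60575036 reads on genes per library, and 1 read was worth 0.598 to 2.09 normalized reads, the unit of every level below.

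Most plants outside the grasses acidify the root surface, reduce ferric iron there and import the ferrous ion. In Arabidopsis the reductase is FRO2 and the importer IRT1, both switched on in the root epidermis by the basic helix-loop-helix factor FIT together with one of its partners bHLH38, bHLH39, bHLH100 or bHLH101. IMA peptides promote this response, the ligase BTS restrains it by marking upstream factors for degradation, secreted coumarins help to mobilize iron, nicotianamine and citrate carry it through the plant, and ferritins hold it in plastids.

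Factors of the same helix-loop-helix family bind E-boxes (CANNTG), of which the G-box (CACGTG) is one form. Short promoter stretches are therefore shown for 6 genes, as examples with and without a G-box and not as a sample of the set. The windows are the 250 bases before the annotated gene start in the TAIR10.1 assembly from RefSeq, written 5′ to 3′ on the strand of the gene, with each CACGTG in capitals. The window of BTS lies at chr3:6273716-6273965, plus strand, that of bHLH38 at chr3:21085246-21085495, minus strand, that of FER3 at chr3:20816036-20816285, minus strand, that of IRT1 at chr4:10707094-10707343, plus strand, that of NAS2 at chr5:22712442-22712691, minus strand and that of CYP82C4 at chr4:15451738-15451987, plus strand. None of these 6 windows overlaps another annotated gene.
BTS: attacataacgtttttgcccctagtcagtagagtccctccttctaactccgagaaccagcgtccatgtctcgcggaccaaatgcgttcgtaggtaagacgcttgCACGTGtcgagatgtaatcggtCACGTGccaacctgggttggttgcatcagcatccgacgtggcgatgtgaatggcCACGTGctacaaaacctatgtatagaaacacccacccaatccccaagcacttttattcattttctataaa
bHLH38: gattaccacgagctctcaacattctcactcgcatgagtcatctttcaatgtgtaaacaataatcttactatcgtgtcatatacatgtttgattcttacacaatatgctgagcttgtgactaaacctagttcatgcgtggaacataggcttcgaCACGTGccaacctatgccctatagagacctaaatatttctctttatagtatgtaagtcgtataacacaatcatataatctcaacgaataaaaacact
FER3: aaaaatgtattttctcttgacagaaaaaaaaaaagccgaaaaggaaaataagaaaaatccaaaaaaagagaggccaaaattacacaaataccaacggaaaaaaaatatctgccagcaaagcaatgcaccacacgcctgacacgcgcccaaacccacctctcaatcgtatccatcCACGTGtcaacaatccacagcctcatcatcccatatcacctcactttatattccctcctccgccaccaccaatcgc
IRT1: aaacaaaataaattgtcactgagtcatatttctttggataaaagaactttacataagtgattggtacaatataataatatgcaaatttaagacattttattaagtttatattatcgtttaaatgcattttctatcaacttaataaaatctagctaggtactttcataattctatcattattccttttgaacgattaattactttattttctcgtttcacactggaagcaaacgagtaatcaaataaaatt
NAS2: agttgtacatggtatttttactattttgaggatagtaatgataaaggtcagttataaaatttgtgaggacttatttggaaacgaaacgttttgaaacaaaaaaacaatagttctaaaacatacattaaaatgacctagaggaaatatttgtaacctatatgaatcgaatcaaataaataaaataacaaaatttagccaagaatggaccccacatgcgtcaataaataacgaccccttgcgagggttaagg
CYP82C4: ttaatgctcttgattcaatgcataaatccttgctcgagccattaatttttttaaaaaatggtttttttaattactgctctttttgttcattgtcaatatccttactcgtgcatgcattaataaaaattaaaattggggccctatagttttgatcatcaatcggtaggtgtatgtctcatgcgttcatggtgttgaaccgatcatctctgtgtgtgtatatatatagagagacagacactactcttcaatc
BTS held 3 G-boxes, with first bases 146, 124 and 70 bases before the gene start, while bHLH38 held 1 at 97 bases and FER3 held 1 at 76 bases. NAS2 held 1 E-box of another form, and the windows of IRT1 and CYP82C4 held no CANNTG on either strand. Over the whole set, CACGTG stood in 6 of 49 windows (12.2%; also bHLH100, OPT3 and FER4), against 6.49% of 27443 protein-coding genes. CANNTG, which includes it, stood in 34 windows (69.4%) against 55.3%. A match of letters is a description and says nothing about binding.

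The samples carried both root and leaf transcripts: all 9 root hair markers, all 9 root endodermis and stele markers and all 9 leaf photosynthesis markers had reads in each group. Of their summed levels, the root hair sum moved with age, temperature and, at 7 days, Heatin. The endodermis and stele sum overlapped between mock and Heatin, and between ages in mock at 22°C. The leaf sum overlapped between mock and Heatin, and between temperatures at 2 days. Sums or counts of calls are given beside the results where a list moved. In whole seedlings, fewer cells of a type and less RNA per cell cannot be told apart. Seed storage transcripts, 10 genes, were high in replicate 2 of the 7-day Heatin samples (1969 at 22°C and 1173 at 27°C, against 27.2 to 150 in the other Heatin samples of that age). Results at 7 days were also computed without these 2 libraries. The sum was also high in 7-day mock replicate 3 at 27°C (549, against 154 and 149 in its group). In 2-day Heatin replicate 2 at 22°C it was 5744, against 1813 and 217 in its group. Those libraries were left out only 1 at a time, as every library was.

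Seedling age was compared first, because several uptake genes were close to silent in the youngest seedlings. A gene was called changed at an adjusted p below 0.1 in limma, with the adjustment over all genes tested, and fold changes are on the log2(value + 1) scale. Between 2 and 7 days in mock at 22°C, 33 of the 48 members tested were higher and 10 were lower, while 38.1% of all genes tested were called higher and 38.6% lower (76.6% in all). Of the deficiency-raised genes 23 of 31 rose and 5 fell, and their median log2 fold change was 1.12, against -0.01 over all genes. The storage genes split, with all 3 VTL genes higher and 3 of 4 ferritins lower.

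IRT1 (AT4G19690) showed the widest gap between ages. Its level was 2.83, 0 and 0 normalized reads in the 2-day mock samples at 22°C, and 2416, 1582 and 1579 at 7 days. At 27°C it was 0, 0 and 0.948 at 2 days, and 487, 176 and 380 at 7 days. A handful of reads stood behind the 2-day values, so the fitted log2 change of 10.19 ± 0.55 (SE) at 22°C depends on the 1 added before taking logs (10.83 without 2-day replicate 1), and no fold is given at 27°C.

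IRT2 (AT4G19680), a root metal transporter gene that lies 2505 bases from IRT1 on chromosome 4, went the other way. It read 677, 502 and 404 at 2 days and 21.8, 24.5 and 10.06 at 7 days in mock at 22°C, a log2 change of -4.80 ± 0.48 (SE) with a limma adjusted p of 9.24e-09. Per kilobase of exon, IRT2 stood at 379 ± 99.2 (SD, n = 3) and IRT1 at 0.603 ± 1.04 at 2 days, and the order was reversed at 7 days, with 13.5 ± 5.53 for IRT2 and 1189 ± 308 for IRT1. The neighbours thus exchanged places between the ages.

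FRO2 (AT1G01580), the root ferric reductase, read 67.2, 95.7 and 80.3 at 2 days and 1191, 719 and 815 at 7 days at 22°C (log2 change 3.45 ± 0.23 SE, limma adjusted p 1.25e-11). CYP82C4, a cytochrome P450 that makes the coumarin sideretin, had no read in the 2-day mock libraries at 22°C and 367, 183 and 210 normalized reads at 7 days. Counting 3 reads over the whole 2-day group as its limit, CYP82C4 was at least 240.8-fold higher at 7 days. S8H, the enzyme that makes its coumarin substrate, was likewise without a read at 2 days and at least 10.15-fold higher at 7 days, with 17.7, 5.66 and 8.62.

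Among the regulators, FIT (AT2G28160) changed little with age beside its partners. It read 473, 468 and 580 at 2 days and 779, 612 and 777 at 7 days at 22°C, a log2 rise of 0.51 ± 0.15 (SE). At 27°C its direction was opposite, from 999, 680 and 603 down to 529, 512 and 460, a log2 change of -0.57 (-0.36 without 2-day replicate 1). Its partners bHLH38, bHLH39, bHLH100 and bHLH101 rose by 4.70, 3.91, 2.96 and 3.28 on the log2 scale at 22°C. The size of the rise rested on single 2-day libraries for bHLH38 (2.12, 0 and 8.33 at 2 days), with 3.89 without replicate 2 and 5.50 without replicate 3. It did so too for bHLH100 (0, 0 and 12.1), with 2.34 without replicate 1 or 2 and 4.20 without replicate 3. MYB10, a root factor that switches on NAS4, fell from 529, 575 and 472 to 69.6, 58.5 and 77.6 (log2 change -2.92 ± 0.21 SE). MYB72, its partner in that role, had reads in only 4 of the 24 libraries and was not tested. Exons of MYB10 overlap a gene on the opposite strand over 26.0% of their length, and counting did not use strand.

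Of the nicotianamine synthases, NAS1 rose by 4.89 and NAS2 by 3.79 on the log2 scale at 22°C, while NAS3 fell from 240, 202 and 88.6 to 8.19, 3.78 and 4.31 (log2 change -4.73 ± 0.38 SE). NAS4 had a log2 change of -0.71. VTL2, a vacuolar iron transporter-like gene, rose from 4.95, 2.10 and 5.30 to 203, 176 and 144 (5.15 ± 0.32 SE), and COPT2, a copper transporter gene that iron deficiency also raises, rose by 4.00.

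The ferritins started high. At 22°C, FER3 fell from 2991, 2909 and 2683 to 1072, 884 and 1072 between the ages, and FER4 from 3093, 2999 and 3006 to 1372, 1235 and 1439. FER2, the ferritin known from seeds, fell from 134, 120 and 111 to 61.4, 49.1 and 64.6. FER1 read 4542, 4372 and 5699 at 2 days and 5860, 4772 and 6452 at 7 days, groups that overlapped. FER1 was the most abundant ferritin per kilobase of exon at 7 days at 22°C, at 4007 ± 600 (SD, n = 3), followed by FER4 at 1077 ± 83.3, FER3 at 790 ± 85.1 and FER2 at 50.9 ± 7.14.

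**Figure D1:**
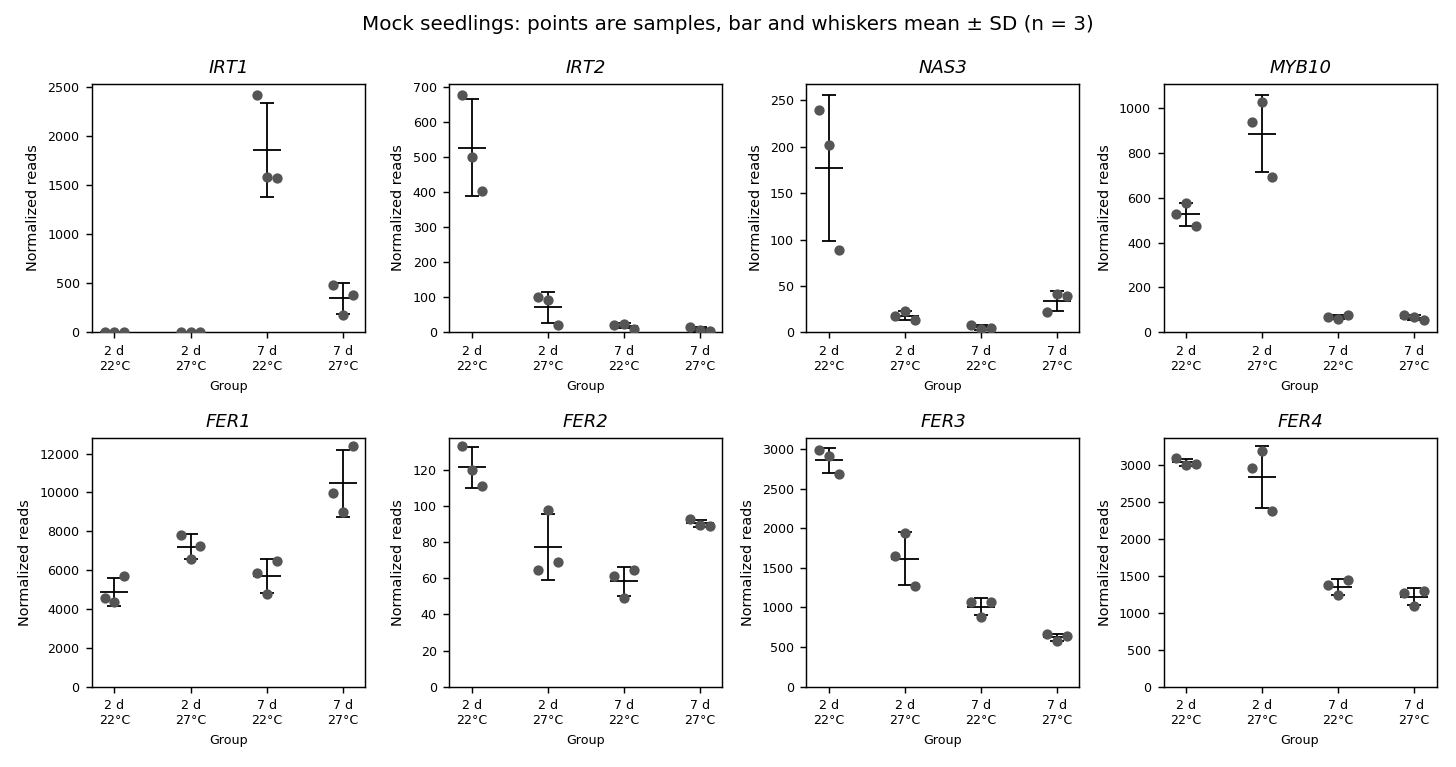
Normalized reads (y axis, linear, a separate scale in each panel) of 8 genes in the 4 mock groups of 2 or 7 days and 22°C or 27°C (x axis). Points are samples and the bar with whiskers is the mean ± SD of 3 samples. IRT1 is near 0 at 2 days and IRT2, NAS3 and MYB10 are high there, while FER1 overlaps between the ages at 22°C and FER3 and FER4 fall.

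At 27°C the age comparison called 29 of 48 members higher and 10 lower, where 36% of all genes were called higher and 35.4% lower (71.4% in all). FIT, NAS3 and BTSL2, a homologue of BTS, were called at both temperatures in opposite directions (6.25% of the 48, against 5.78% of all genes). That share lies near the background, so that it is no property of the list. In the same direction, 26 members were higher and 7 lower at both (54.2% and 14.6% of the 48), where 26.4% of all genes were higher and 27.1% lower at both. NAS3 rose by 0.89 at 27°C in place of its fall at 22°C, a call lost without 2-day replicate 3 or 7-day replicate 2 or 3 (log2 change 0.71 to 1.17 over the libraries left out), and BTSL2 (-0.16 at 27°C) was no longer called in DESeq2 or without 2-day replicate 1 or 2 or 7-day replicate 1 or 3 (-0.25 to -0.09). At 27°C MYB10 fell from 937, 1027 and 693 to 76.4, 68.0 and 53.0 and FER3 from 1644, 1935 and 1265 to 659, 575 and 640, while VTL2 rose by 3.38 and COPT2 by 3.34. The IMA peptide genes changed less: IMA2 rose at both temperatures (1.12 and 1.13), IMA1 passed the threshold at 27°C (0.86) and not at 22°C (0.31 ± 0.31 SE), and IMA3 was called at neither. BTS rose by 0.62 at 22°C and had 0.07 at 27°C. Root hair markers fell with age (9 of 9 called lower at 22°C, with a sum of 10839 to 17232 at 2 days and 1113 to 1192 at 7 days) and leaf photosynthesis markers rose (8 of 9, from 1120663 to 1345280 up to 2968719 to 2991335). Endodermis and stele markers split at 22°C, with 5 of 9 called higher and 3 lower. Their sum was 6619 to 7539 at 2 days and 6746 to 7134 at 7 days. At 27°C their sum fell from 11099 to 13200 at 2 days to 6314 to 6537 at 7 days. The root hair sum fell there from 1362 to 3283 down to 405 to 485. The leaf sum rose there from 1078145 to 1568051 up to 1619668 to 1844900. The part of such shifts in tissue make-up in the iron gene changes was not tested.

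Warmth, 27°C against 22°C, was then compared within each age to ask how iron genes respond to temperature. In 2-day-old mock seedlings 24 of the 46 members tested were higher and 9 lower, where 35.3% of all genes were called higher and 34.3% lower (69.6% in all). The deficiency-raised genes counted 14 higher and 5 lower of 29, the storage genes 3 higher and 2 lower of 7, and the 10 others 7 higher and 2 lower. The members' median log2 change was 0.32, against 0.01 over all genes. The total called lies near the background share, so that it is no property of the list.

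The FIT partners bHLH39 and bHLH38 led the called rises at 2 days. bHLH39 read 7.78, 8.41 and 29.5 at 22°C and 129, 85.8 and 101 at 27°C, and bHLH38, its neighbour 1144 bases away on chromosome 3, read 2.12, 0 and 8.33 against 11, 14.5 and 14.2. Their log2 changes were 2.95 ± 0.42 (SE) and 2.20 ± 0.74, with limma adjusted p of 8.58e-05 and 0.0206. The bHLH38 change was 1.39 without mock replicate 2 at 22°C and 3.00 without replicate 3, and was called in both cases. The partners bHLH101 (14.2, 10.5 and 15.9 at 22°C, and 34.2, 10.3 and 55.0 at 27°C) and bHLH100 (0, 0 and 12.1, and 0, 0 and 0) overlapped between temperatures and were not called. Exons of bHLH38 overlap a gene on the opposite strand over 35.7% of their length, and counting did not use strand. FIT itself rose by 0.56 ± 0.17 (SE; 0.34 without mock replicate 1 at 27°C), and NAS1 rose by 1.58 ± 0.31, from 39.6, 28.4 and 34.1 to 121, 84.7 and 107.

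The deepest falls at 2 days were those of NAS3 (240, 202 and 88.6 at 22°C, and 17.1, 22.7 and 13.3 at 27°C), IRT2 (677, 502 and 404, and 100, 93.0 and 20.9) and NAS2 (20.5, 18.9 and 21.2, and 1.22, 3.10 and 1.90). Their log2 changes were -3.16 ± 0.38, -3.13 ± 0.51 and -2.83 ± 0.32 (SE), and in none of them did the groups overlap (IRT2 had -2.41 without mock replicate 3 at 27°C). IMA3, which codes for an iron-responsive peptide, read 49.5, 46.3 and 38.6 at 22°C and 8.55, 10.3 and 24.6 at 27°C (log2 change -1.70 ± 0.42 SE). IMA1 (21.9, 18.9 and 13.6 against 9.77, 8.27 and 19.0) and IMA2 (29.7, 22.1 and 28.0 against 20.8, 15.5 and 34.1) overlapped between temperatures and were not called.

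BTS and its homologues BTSL1 and BTSL2 all rose at 2 days, by 0.38, 1.09 and 0.34 on the log2 scale. BTS read 2672, 2764 and 2939 at 22°C and 3387, 3480 and 4091 at 27°C. Among ferritins FER1 rose, from 4542, 4372 and 5699 to 7831, 6572 and 7228 (log2 change 0.57 ± 0.13 SE). FER2 fell from 134, 120 and 111 to 64.7, 98.2 and 69.2 and FER3 from 2991, 2909 and 2683 to 1644, 1935 and 1265 (-0.67 and -0.85). FER4, at 2952, 3189 and 2379, overlapped with its level at 22°C and was not called (-0.11 ± 0.14 SE). FRO2 read 91.6, 72.3 and 72.1 at 27°C, within the range at 22°C. Root hair markers fell with warmth at this age (8 of 9 called lower, from a sum of 10839 to 17232 down to 1362 to 3283) and endodermis and stele markers rose (7 of 9, from 6619 to 7539 up to 11099 to 13200). Their part in these changes was not tested.

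In 7-day-old mock seedlings warmth went with lower iron gene levels. Of 48 members tested 10 were higher and 28 lower, where 28.8% of all genes were called higher and 32.9% lower (61.8% in all). The members' median log2 change was -0.36, against -0.03 over all genes. Of the 31 deficiency-raised genes 18 fell and 3 rose, and the storage genes counted 5 lower and 2 higher.

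CYP82C4 fell the furthest, from 367, 183 and 210 at 22°C to 9.55, 5.67 and 4.89 at 27°C (log2 change -5.02 ± 0.26 SE, limma adjusted p 2.67e-10). About 9.0% of the 50-base windows of CYP82C4 occur elsewhere in the genome, so a small part of its reads may be shared. NAS2 fell from 367, 230 and 296 to 12.3, 12.3 and 9.07 (-4.60 ± 0.22 SE) and FRO2 from 1191, 719 and 815 to 138, 98.3 and 161 (-2.77 ± 0.22). IRT1 fell by 2.51 and IMA3 by 2.47 on the log2 scale, IMA3 from 66.8, 75.5 and 38.8 to 10.9, 8.50 and 9.77. Exons of IMA3 overlap those of opposite-strand genes over 20.5% of their length.

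Against this direction, NAS3 rose from 8.19, 3.78 and 4.31 to 21.8, 41.6 and 39.1 (2.46 ± 0.34 SE), FER1 from 5860, 4772 and 6452 to 9981, 9002 and 12394 (0.88 ± 0.11) and FRO3, a mitochondrial ferric reductase gene, from 1480, 1548 and 1490 to 2064, 2831 and 2808 (0.75 ± 0.12). FER2 rose from 61.4, 49.1 and 64.6 to 92.8, 89.8 and 89.3, while FER3 fell by 0.69 on the log2 scale. FER4 was called lower (-0.15 ± 0.07 SE), with overlapping groups, and that call was lost in edgeR, in DESeq2, under 4 other alternatives and without any 1 of mock replicates 1 and 3 at 22°C, mock replicate 2 at 27°C, Heatin replicate 1 at 22°C and Heatin replicate 3 at 27°C (-0.21 to -0.07). FIT fell by 0.52, while IMA1 (30.0, 16.1 and 21.6 at 27°C), IMA2 (55.9, 50.1 and 44.7) and BTS (3440, 3812 and 4210) overlapped with their levels at 22°C and were not called. The upstream factors ILR3, bHLH104 and bHLH121 rose at both ages, by 0.50 to 1.44 on the log2 scale, and bHLH34 fell at both (-0.63 and -0.86).

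Root hair markers were lower at 27°C at this age too (9 of 9 called, 405 to 485 against 1113 to 1192), as were leaf photosynthesis markers (8 of 9, 1619668 to 1844900 against 2968719 to 2991335). The endodermis and stele sum was 6314 to 6537 at 27°C and 6746 to 7134 at 22°C. Their part in the fall of uptake genes was not tested.

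The response to warmth was compared between ages with an interaction term over all 24 libraries. It called 29 of 48 members, 25 of them with a lower value at 7 days than at 2 days, where 50.1% of all genes were called and 27.6% in that direction. Of the 46 members tested at both ages, 11 were called higher with warmth at 2 days and lower at 7 days: FIT, bHLH115, BTSL1, BTSL2, NAS1, YSL2, FRD3, IREG2, MTP3, VTL2 and VTL5. That is 23.9% of the members, where 5.4% of all 22579 genes tested at both ages were called in these directions. Of these, the call of VTL2 at 2 days was lost without mock replicate 2 at 22°C (0.91) and that of IREG2 at 7 days without mock replicate 2 or 3 at either temperature (-0.44 to -0.27 over the libraries left out). NAS3 and FER2 were called the opposite way, lower at 2 days and higher at 7 days (4.35%, against 3.45% of all genes). The difference was widest for NAS3 (5.62 ± 0.54 SE) and CYP82C4 (-5.35 ± 0.53), then NAS1 (-3.20 ± 0.37) and FRO2 (-2.73 ± 0.32). CYP82C4 was at or near 0 at 2 days, so its difference holds the fall at 7 days alone.

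**Figure D2:**
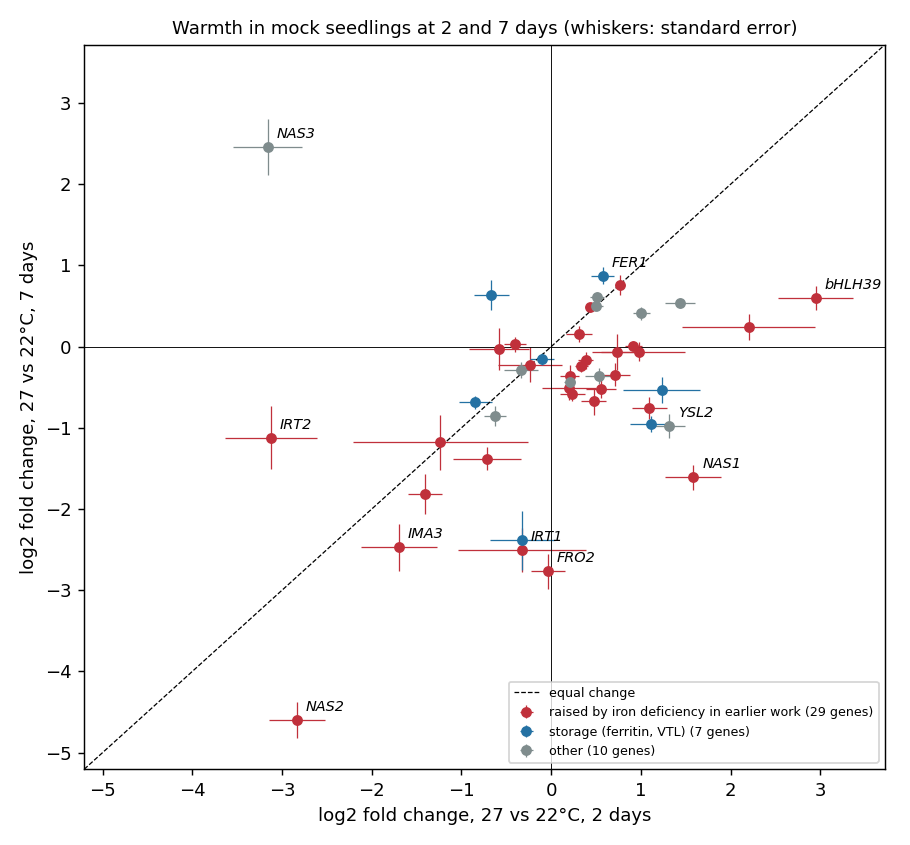
Log2 fold change between 27°C and 22°C in mock seedlings at 2 days (x axis) and 7 days (y axis) for the 46 iron genes tested at both ages, with standard errors as whiskers and the class of each gene in colour. NAS1 and YSL2 sit at the lower right (raised at 2 days, lowered at 7 days), NAS3 at the upper left, and NAS2 at the lower left.

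In Heatin-treated seedlings warmth was compared in the same way. At 2 days it called 26 of 46 members higher and 9 lower, where 34.1% of all genes were called higher and 34.4% lower (68.5% in all). The rises were led by bHLH38 (5.10, 2.39 and 0 at 22°C, and 28.7, 24.3 and 28.5 at 27°C), bHLH39 (15.3, 13.7 and 22.6, and 163, 131 and 243) and bHLH101 (11.2, 11.4 and 13.1, and 29.9, 26.7 and 78.0). NAS3, IRT2 and NAS2 fell by 3.89, 2.78 and 2.14 on the log2 scale. Mock and Heatin samples are separate libraries, and 23 members were called higher and 8 lower in both (50% and 17.4% of the 46), against 31.4% and 30.8% of all genes. None was called in opposite directions, which was rare over all genes too (11 of 23140). The bHLH38 rise was 2.63 without Heatin replicate 3 at 22°C. Root hair markers fell (9 of 9, from a sum of 9937 to 18594 down to 1675 to 3496) and endodermis and stele markers rose (7 of 9, from 6911 to 7828 up to 11665 to 13735), and their part in these changes was not tested.

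At 7 days with Heatin 14 of 48 members were higher and 18 lower with warmth. Over all genes 29.4% were called higher and 33.5% lower (62.9% in all). The total called (66.7% of the members) lies near the background share, so that it is no property of the list. The log2 change was -1.19 with Heatin and -5.02 in mock for CYP82C4, -1.87 and -4.60 for NAS2, -0.88 and -2.77 for FRO2, and -0.58 and -2.51 for IRT1. NAS4 (183, 170 and 251 at 22°C, and 63.9, 31.7 and 65.3 at 27°C) and COPT2 (440, 399 and 435, and 140, 103 and 134) were the deepest falls beside NAS2. NAS3 rose by 3.42, FER1 by 1.26 and bHLH39 by 1.096, and bHLH100, lower with warmth in mock, was called higher here (0.89 ± 0.33 SE). That call was lost in the fit over all 24 libraries and without Heatin replicate 1 at 22°C or replicate 3 at 27°C (0.55 to 1.06 over the libraries left out). The IRT1 call (limma adjusted p 0.0827) was lost in DESeq2, in the fit over all 24 libraries and without Heatin replicate 1 or 3 at 22°C or replicate 1 or 2 at 27°C (-0.73 to -0.43). Root hair markers fell here (9 of 9, from a sum of 749 to 1011 down to 288 to 355), as did leaf photosynthesis markers (8 of 9, from 2782660 to 3087604 down to 1642471 to 1756517) and 5 of 9 endodermis and stele markers, and their part in these changes was not tested.

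Heatin itself was compared with mock at each temperature and age. These comparisons share their mock samples with the mock warmth comparisons, so each is given by the values of its own groups. At 2 days limma called 0 of 46 members at 22°C and 0 at 27°C, beside 0.00432% of all genes tested at each temperature. edgeR and DESeq2 also called 0. At an unadjusted p below 0.05 in limma, 412 of all 23140 genes tested passed at 22°C and 593 at 27°C. Among them were 3 members at 22°C (IRT1, NAS1 and BTSL2) and 6 at 27°C (IMA1, IMA2, IRT1, NAS2, FER2 and VTL1).

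IRT1 at 2 days was one of these, named after its values were seen. Its level was 9.18, 10.8 and 16.8 with Heatin at 22°C, against 2.83, 0 and 0 in mock, and 4.99, 1.21 and 15.2 with Heatin at 27°C, against 0, 0 and 0.948. The Heatin samples lay above the mock samples at 22°C, at low levels. At 27°C the lowest Heatin value (1.21) and the highest mock value (0.948) were each 1 read. Only the depth factor set those libraries apart, so in whole reads the groups met at 1 read. The log2 changes were 3.04 ± 0.71 (SE) and 2.26 ± 0.71, both with a limma adjusted p of 1. In the fit over all 24 libraries the change at 22°C passed, with an adjusted p of 0.0928.

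At 7 days and 22°C Heatin called 3 of 48 members higher and 1 lower, against 1.39% and 1.08% of all genes (2.47% in all). bHLH39 read 184, 174 and 261 in mock and 384, 392 and 512 with Heatin (log2 change 1.06 ± 0.15 SE, limma adjusted p 0.00167). bHLH38 rose from 84.6, 71.8 and 81.9 to 146, 122 and 174 (0.87 ± 0.16, adjusted p 0.0115) and NAS2 from 367, 230 and 296 to 651, 427 and 596 (0.91 ± 0.22, adjusted p 0.0615). IMA3 fell from 66.8, 75.5 and 38.8 to 29.8, 26.0 and 23.0 (-1.12 ± 0.29, adjusted p 0.0748). The groups did not overlap in any of these genes. The calls of NAS2 and IMA3 were lost without mock replicate 2 or Heatin replicate 1 or 3, that of NAS2 also without mock replicate 3 and that of IMA3 without mock replicate 1 or Heatin replicate 2 (0.73 to 1.09 for NAS2 and -1.41 to -0.94 for IMA3 over the libraries left out). All 4 calls were lost in the fit over all 24 libraries, while without the 2 libraries high in seed storage transcripts 7 members were called, 3 of them among these 4. The root hair sum was 749 to 1011 with Heatin and 1113 to 1192 in mock, ranges that did not overlap, with 0 of 9 markers called. The endodermis and stele sum was 7068 to 7491 against 6746 to 7134, with 2 of 9 called higher, and the part of either in these calls was not tested. IRT1 read 2717, 2154 and 3256 with Heatin, FRO2 861, 680 and 1252 and CYP82C4 249, 221 and 360, and each overlapped with its mock group. FIT (952, 821 and 1010 with Heatin), IMA1 (31.1, 35.96 and 33.5), IMA2 (79.9, 93.0 and 132), FER1 (6740, 7529 and 7067) and FER4 (1515, 1511 and 1449) did not pass the adjusted threshold. Their Heatin samples stood above every mock sample, but the share of all genes that did so was not counted. BTS (4269, 3202 and 4418), FER2 (50.1, 54.6 and 39.7) and FER3 (996, 978 and 987) overlapped with mock.

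At 7 days and 27°C the members rose more widely with Heatin. Of 48 tested 22 were higher and 1 lower, where 2.32% of all genes were called higher and 3.1% lower (5.42% in all). The members' median log2 change was 0.37, against -0.01 over all genes. Of the deficiency-raised genes 15 of 31 were called higher and none lower (median 0.37). Of the storage genes 4 of 7 were called higher and 1 lower (median 0.44), and of the 10 others 3 higher (NAS3, YSL1 and FRD3).

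CYP82C4 led these genes, with 9.55, 5.67 and 4.89 in mock and 111, 127 and 117 with Heatin (log2 change 3.99 ± 0.26 SE, limma adjusted p 2.7e-07). NAS2 read 12.3, 12.3 and 9.07 in mock and 210, 114 and 140 with Heatin (3.64 ± 0.22, adjusted p 1.86e-07). IRT1 read 487, 176 and 380 in mock and 1765, 1555 and 2096 with Heatin (2.48 ± 0.27, adjusted p 7.62e-05). With Heatin at 27°C, IRT1 overlapped with the mock samples at 22°C (1579 to 2416), while FRO2 (415, 508 and 552) and CYP82C4 lay between the mock levels of both temperatures.

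The FIT partners bHLH38, bHLH39, bHLH100 and bHLH101 all rose with Heatin at 27°C, by 1.496, 1.56, 2.03 and 1.03 on the log2 scale. bHLH39 reached 839, 950 and 950, above every other group of the series. FIT was not called (529, 512 and 460 in mock, and 500, 410 and 501 with Heatin, log2 change -0.09 ± 0.11 SE). IMA1 rose from 30.0, 16.1 and 21.6 to 53.0, 60.2 and 48.1 (1.25 ± 0.26 SE) and IMA2 from 55.9, 50.1 and 44.7 to 114, 108 and 134 (1.22 ± 0.22). IMA1 and IMA2 lie 1876 bases apart on chromosome 1 and share few 50-base windows (1.37% and 1.28%). IMA3 read 14.0, 7.92 and 11.4 and was not called. BTSL1 rose by 0.73, while BTS (4234, 4234 and 4566) and BTSL2 were not called.

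IRT2 rose by 2.13, FRO2 by 1.91, NAS1 by 1.18, NAS3 by 1.52, the vacuolar zinc transporter gene MTP3 by 0.81 and the vacuolar metal exporter gene NRAMP3 by 0.37 on the log2 scale. The NAS3 call was lost without mock replicate 1 (1.24 to 1.69 over the libraries left out) and that of NRAMP3 without mock replicate 1 or 2 or Heatin replicate 2 or 3 (0.31 to 0.43). Other members known to respond to iron deficiency did not pass: FRO3 (0.16), NRAMP1 (-0.11), COPT2 (-0.36), OPT3 (0.10), NAS4 (-0.22), IREG2 (-0.04), F6'H1 (-0.33) and PDR9 (0.37), the last being the exporter of coumarins and F6'H1 the enzyme at their entry. S8H read 4.09, 2.83 and 9.07 in mock and 17.1, 7.92 and 22.8 with Heatin and was not called (1.43). The 5 upstream factors ILR3, bHLH34, bHLH104, bHLH115 and bHLH121 had log2 changes from -0.04 to 0.11 and none was called.

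Storage genes rose beside the deficiency-raised ones. FER1 read 9981, 9002 and 12394 in mock and 15890, 16987 and 18078 with Heatin at 27°C (0.71 ± 0.11 SE, limma adjusted p 0.00127), and FER3 659, 575 and 640 against 836, 830 and 871 (0.44 ± 0.08, adjusted p 0.00311). VTL1 rose by 2.18 and VTL5 by 0.62. FER4 (1269, 1084 and 1299 against 1369, 1408 and 1453) was not called. FER2 alone among the members was called lower, from 92.8, 89.8 and 89.3 to 62.4, 44.3 and 59.6 (-0.71 ± 0.18, limma adjusted p 0.0404). The FER2 call was lost without any 1 of the mock replicates or Heatin replicate 2 (-0.81 to -0.56 over the libraries left out).

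**Figure D3:**
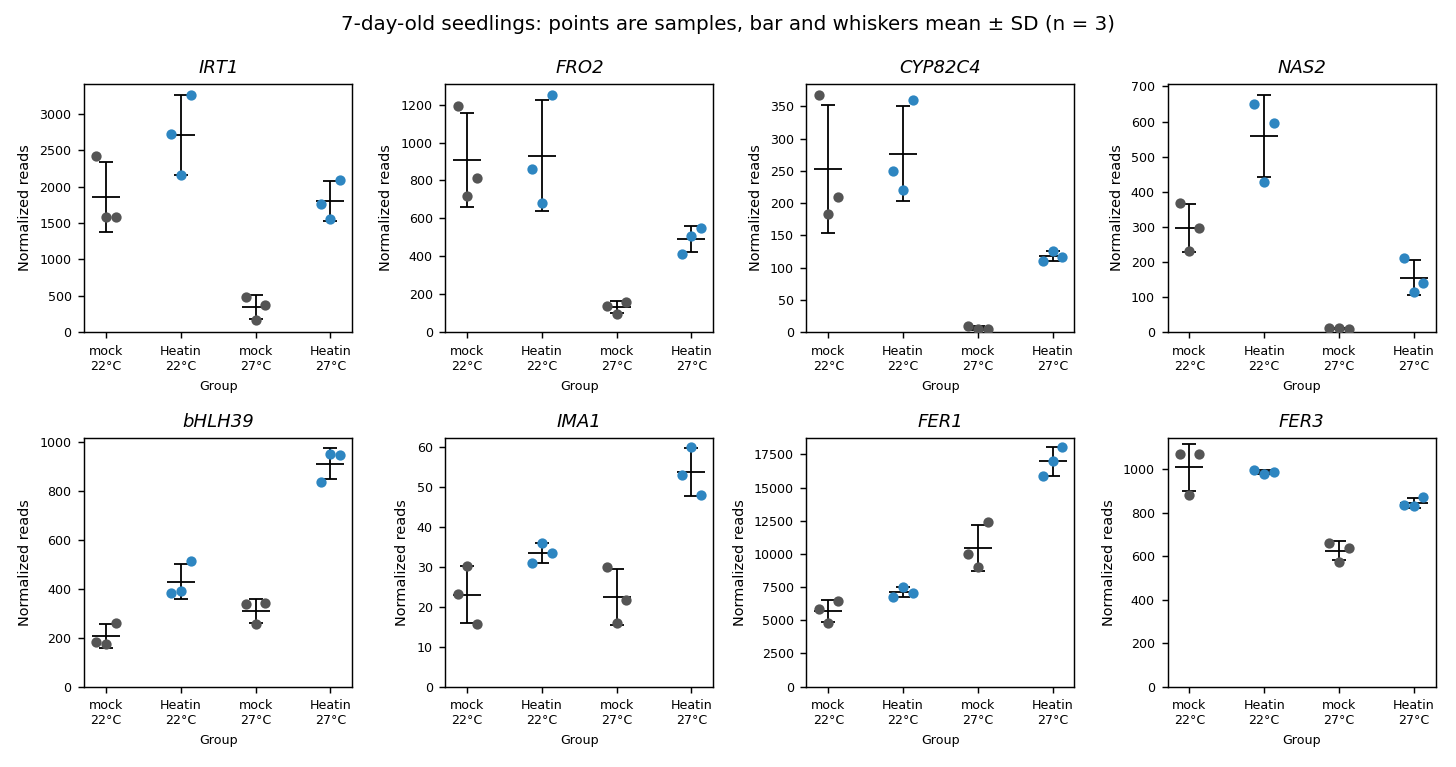
Normalized reads (y axis, linear from 0, a separate scale in each panel) of 8 iron genes in the 4 groups of 7-day-old seedlings (x axis). Points are samples, mock in grey and Heatin in blue, and the bar with whiskers is the mean ± SD of 3 samples. IRT1, FRO2, CYP82C4 and NAS2 are lowest in mock at 27°C, and bHLH39, IMA1 and FER1 are highest with Heatin at 27°C.

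Root hair markers were lower with Heatin at 27°C (3 of 9 called lower, a sum of 288 to 355 against 405 to 485 in mock). The endodermis and stele sum was 6184 to 6947 with Heatin and 6314 to 6537 in mock, and the leaf photosynthesis sum 1642471 to 1756517 and 1619668 to 1844900, ranges that overlapped. Without the 2 libraries high in seed storage transcripts the count at 27°C was again 23, although FER2 (-0.56) and NRAMP3 (0.37) were then not called. In the fit over all 24 libraries bHLH38, bHLH100, bHLH101, NRAMP3, FER3 and VTL5 were not called.

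Whether Heatin acted differently at the temperatures was tested by the interaction term at 7 days. It called 7 of 48 members, all with a larger Heatin change at 27°C, where 0.335% of all genes were called in that direction and 0.447% in the other (0.783% in all). CYP82C4 differed by 3.83 ± 0.37 (SE, limma adjusted p 0.00021) and NAS2 by 2.73 ± 0.32 (adjusted p 0.0014). bHLH100 (2.07), IRT1 (1.93), FRO2 (1.88), bHLH101 (0.85) and FER3 (0.46) followed. Those of bHLH100 and FER3 were lost without most single libraries, 9 and 11 of 12 (1.73 to 2.24 and 0.41 to 0.56 over the libraries left out), and that of IRT1 without Heatin replicate 2 at 22°C (1.503 to 2.24). In the fit over all 24 libraries bHLH100, IRT1, bHLH101 and FER3 were no longer called. bHLH100 read 16.4, 17.0 and 18.7 in mock at 22°C, 12.2, 18.6 and 20.9 with Heatin at 22°C, 8.19, 4.72 and 9.07 in mock at 27°C, and 24.9, 25.3 and 51.4 with Heatin at 27°C. For bHLH39, whose Heatin change was 1.06 at 22°C and 1.56 at 27°C, the difference of 0.50 was not called. Without 7-day Heatin replicate 2 at 22°C the count was 4, and without both libraries high in seed storage transcripts it was also 4, with bHLH100, bHLH101, IRT1 and FER3 not called.

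**Figure D4:**
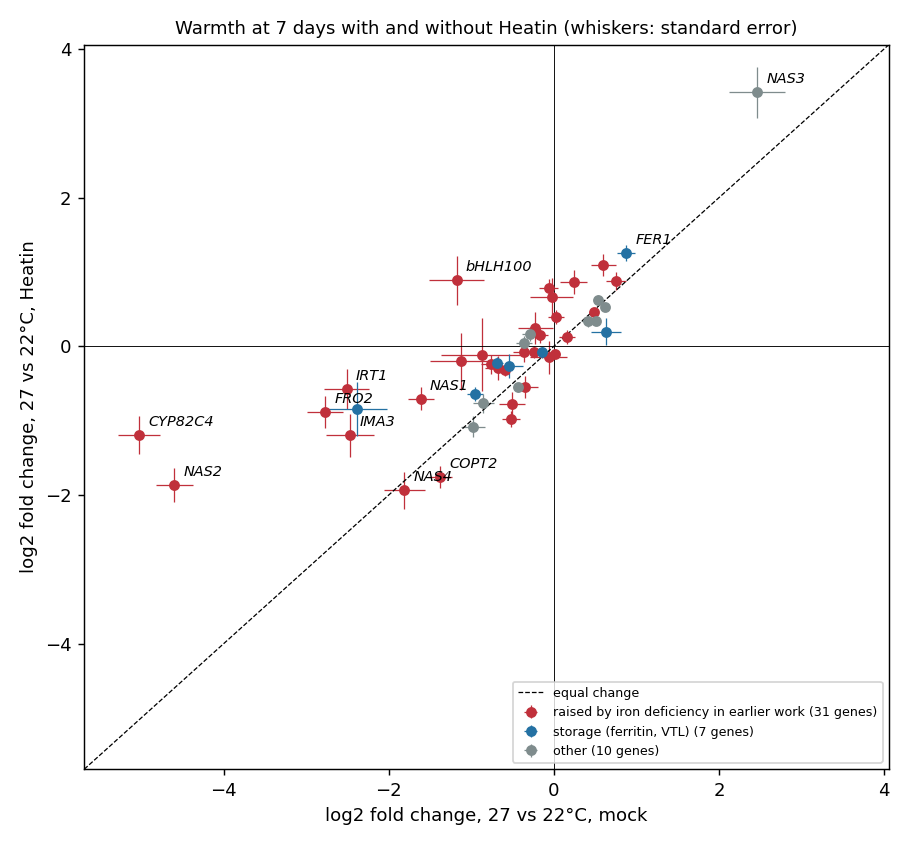
Log2 fold change between 27°C and 22°C at 7 days in mock (x axis) and Heatin (y axis) seedlings for the 48 iron genes tested, with standard errors as whiskers and the class of each gene in colour. CYP82C4, NAS2, FRO2, IRT1 and bHLH100 lie above the dashed line of equal change, and COPT2 and NAS4 lie on or just under it.

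A further list of 32 iron genes outside the set, among them other genes of the FRO family, organelle transporters and regulators, was counted for comparison. With Heatin at 27°C at 7 days 2 of 29 tested were higher and 4 lower (20.7% in all, against 5.42% of all genes), and at 22°C 1 was higher and 2 lower (10.3%, against 2.47%). MTP8, a vacuolar manganese and iron transporter gene, rose by 2.30 at 27°C, while the FRO family genes FRO4 and FRO5 fell by 1.18 and 2.54 and bHLH25, a factor that acts on FIT, by 1.59. bHLH11, a repressor of iron uptake genes, rose by 0.62 at 22°C. Warmth in mock called 14 higher and 8 lower of 30 at 2 days (73.3%, against 69.6% of all genes), and 6 higher and 15 lower of 29 at 7 days (72.4%, against 61.8%).

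**Figure D5:**
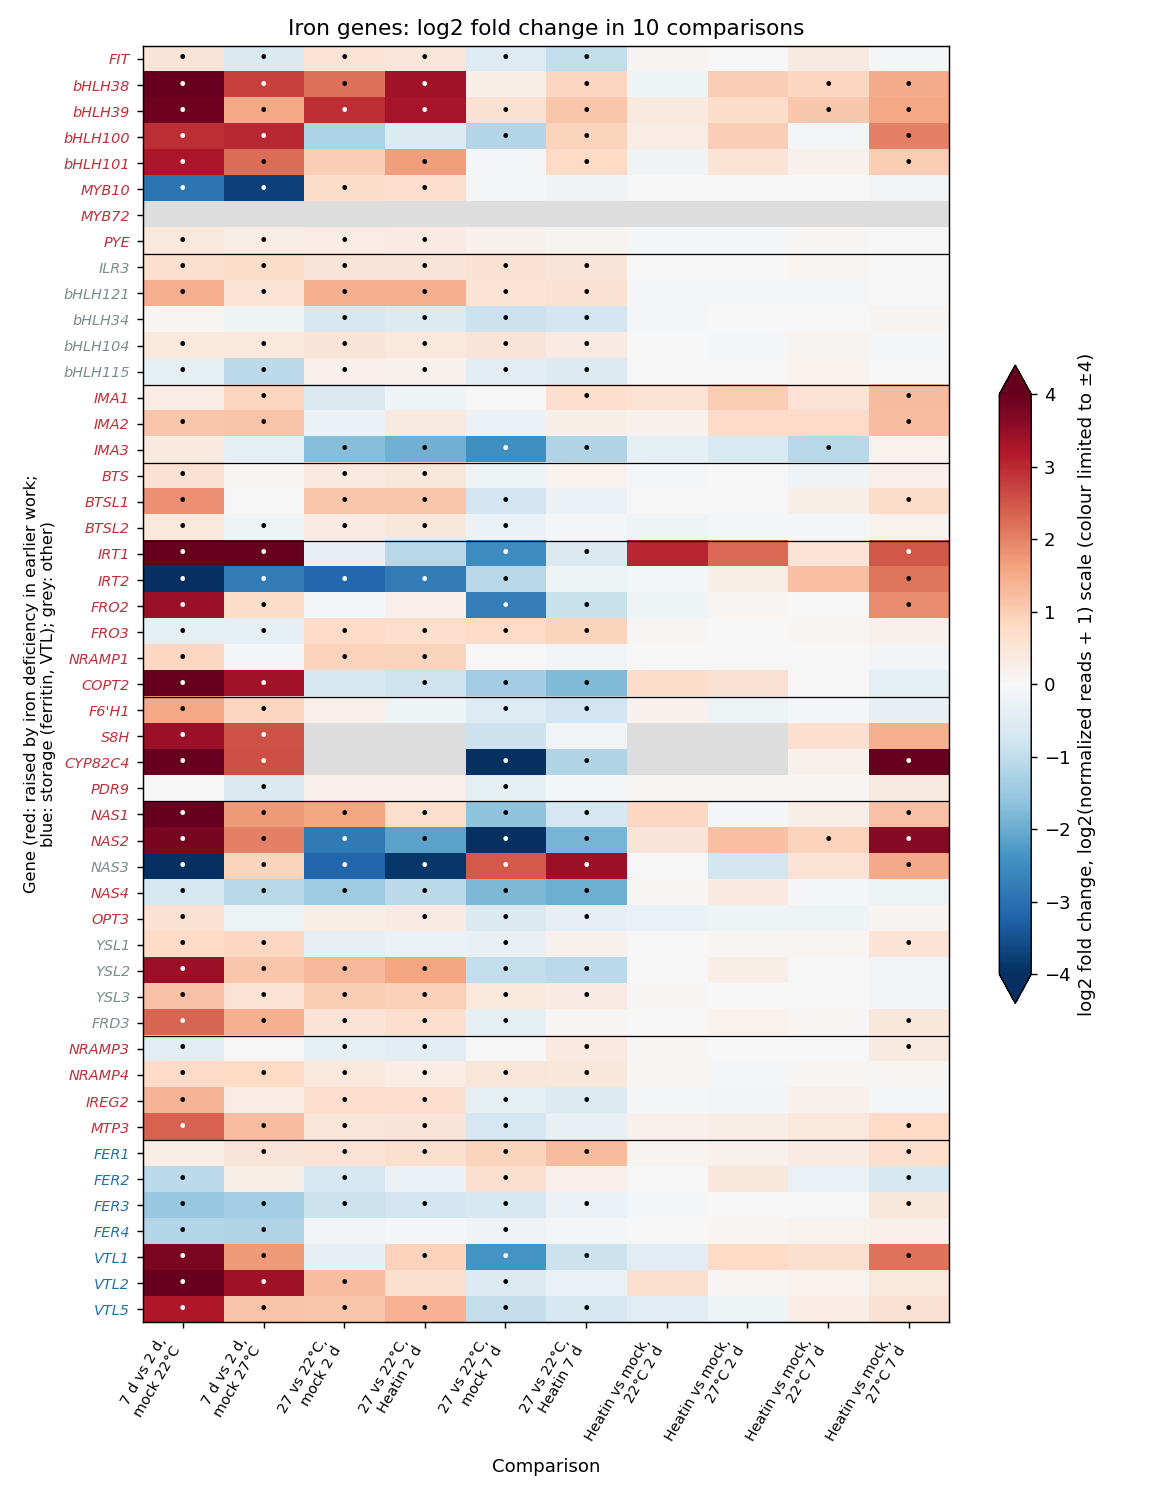
Log2 fold change (colour, limited to ±4) of the 49 iron genes (rows, grouped by role and with names coloured by class) in 10 comparisons (columns). Dots mark an adjusted p below 0.1 in limma and grey cells were not tested. The right-most column, Heatin at 27°C at 7 days, has 23 dots, and both Heatin columns at 2 days have none.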

How the data were processed

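RNA of whole seedlings was sequenced as single-end reads of 50 bases. Per the labels and the study's methods the authors aligned reads with TopHat and Bowtie to TAIR10, counted them per gene with HTSeq, and deposited the signal per gene as read counts divided by a DESeq depth factor. All deposited values (100%) came back to whole reads within 0.01. The counting used no strand setting, so reads of overlapping genes on opposite strands cannot be told apart. Reads counted as ambiguous between genes were tallied apart, at 1.06% to 1.28% of the signal on genes. So were reads without a unique alignment, at 6.19% to 12.4%. No column of per-sample values was left unused.

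Levels were tested with limma 3.58.1 (trend) in R 4.3.3 on log2(value + 1), over genes with a mean of at least 1, with Benjamini-Hochberg adjustment over all genes of a fit and calls at an adjusted p below 0.1. The 12 samples of an age entered the comparisons within that age, and all 24 those between ages. The unit was not a count, so edgeR 4.0.16 and DESeq2 1.42.0 on the recovered reads were alternatives, beside another pseudocount (8), other filters, a stricter threshold, another scaling, a replicate block, fits over other samples and leaving out each library. The batches pooled into a sample were grown at separate times. Whether the 3 samples of a group drew on different batches is not given in the sources used here, so p-values measure the spread between these samples, which may be technical. No pair of libraries agreed within sampling noise.

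Values in every sample were given for FIT, IRT1, FRO2, the IMA genes, BTS and the ferritins and, per comparison, for the 3 largest rises and 3 largest falls among called members whose replicates did not overlap. Other members are named with their fold change. The members, lists and tests were chosen with earlier results of these data known. Motifs were read from TAIR10.1, where all 49 members were found. Figures were drawn with matplotlib 3.10.9. Amino acid sequences were not used here.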

Additional observations from a re-analysis of the deposited data

Results flagged for a closer look

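The effect of Heatin at 7 days differed between 27°C and 22°C in 7 members by the interaction term in limma, 3 samples a group. The log2 difference was 3.83 for CYP82C4, 2.73 for NAS2, 2.07 for bHLH100, 1.93 for IRT1, 1.88 for FRO2, 0.85 for bHLH101 and 0.46 for FER3. The adjusted p of bHLH100 was 0.0815 and that of FER3 0.0878, and both calls were lost when the threshold was set at 0.05.

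The effect of warmth in mock differed between 7 and 2 days in 29 members by the interaction term over all 24 libraries. The log2 difference was positive for NAS3 (5.62), IRT2 (2.01), FER2 (1.302) and NRAMP3 (0.43). It was negative for CYP82C4 (-5.35), NAS1 (-3.20), FRO2 (-2.73), bHLH39 (-2.35), YSL2 (-2.29), IRT1 (-2.18), VTL5 (-2.06), VTL1 (-2.06), bHLH38 (-1.96), BTSL1 (-1.85), VTL2 (-1.77), NAS2 (-1.77), MTP3 (-1.15), FIT (-1.08), IREG2 (-1.05), NRAMP1 (-0.91), and bHLH121 (-0.90), FRD3 (-0.90), OPT3 (-0.82), MYB10 (-0.80), bHLH115 (-0.64), YSL3 (-0.60), BTSL2 (-0.58), PDR9 (-0.57) and BTS (-0.55). IRT1 was at or near 0 at 2 days, and its call was lost in edgeR (-1.07) and DESeq2 (-0.92). In edgeR those of IRT2 (1.69) and NAS2 (-1.53) were lost too. With 1 library left out, the calls were lost of bHLH38 without 2-day mock replicate 2 at 22°C (-1.15), of MYB10 without 7-day mock replicate 3 at 27°C (-0.66), and of NRAMP3 without mock replicate 2 at 22°C of either age (0.35 and 0.34). IRT2 had 1.29 without 2-day mock replicate 3 at 27°C. Beyond the seed storage sums, groups of 3 samples were not searched for single samples that stand apart.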

How the results depend on the processing

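No called member changed direction under any alternative or with any library left out, over 283 calls of a member in a comparison. Of these calls 46 were lost in at least 1 setting, 29 of them when 1 library was left out, 23 in 1 fit over all 24 samples, 4 in edgeR and 5 in DESeq2. For Heatin at 22°C and 7 days the count of 4 became 2 at an adjusted p below 0.05, 9 with the replicate block, 0 in 1 fit over all 24 samples and 7 without the libraries high in seed storage transcripts, an alternative chosen after seeing the data. Leaving out 1 library gave 2 to 6, with 2 without mock replicate 2, Heatin replicate 1 or Heatin replicate 3. For Heatin by warmth the count of 7 became 11 with the block, 3 in the fit over 24 samples and 4 without the libraries high in seed storage transcripts, and 4 to 8 with 1 library left out. For Heatin at 22°C and 2 days the fit over 24 samples called 1 member, and leaving out 1 library called 0 at either temperature. For Heatin at 27°C and 7 days leaving out 1 library gave 20 to 24 (main count 23). The other ranges were 31 to 35 and 35 to 39 for warmth in mock at 2 and 7 days, 32 to 36 and 29 to 34 in Heatin, 43 to 44 and 37 to 40 for age at 22°C and 27°C, and 27 to 31 for warmth by age. Leaving out replicate 3 of every 2-day group, also chosen after seeing the data, gave 35 for warmth in mock and 35 in Heatin. The cause of these shifts was not tested.

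Same-numbered samples correlated with a mean r of 0.280 at 2 days (lowest 0.00463) and 0.102 at 7 days (lowest -0.166). Differently numbered samples had a mean r of -0.135 at 2 days and -0.051 at 7 days. Because of the lowest values the numbers were not taken as pairs. Still, 11 of 12 and 8 of 12 samples correlated best with their own number, a likeness that the main fit ignores. With the replicate block no call was lost, and the counts were 38 and 40 for warmth in mock at 2 and 7 days, 27 for Heatin at 27°C and 7 days, 44 and 40 for age, and 32 for warmth by age. Rescaling to total reads moved the median of all genes by -0.15 for age at 22°C and 0.10 for warmth by age. With 1 read worth 0.598 to 2.09 normalized reads, changes of genes under about 10 normalized reads rest on few reads.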
